A study of Mus musculus with 6 samples.

Results

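The cytochrome P450 genes of mouse colonic mucosa are described here across 6 arrays, of which the labels give 3 as p38a-knockout and 3 as wild type. A member is a gene whose platform symbol is Cyp followed by a digit, Cyp51 excepted, on a probe set that carries no other symbol. By this rule 95 probe sets named 72 genes, out of 18193 named genes on the array, and each gene was represented by its brightest probe set over all 6 arrays. Of the 72 genes, 31 passed the filter on low signal and were tested, among 12437 genes tested in all, and 41 lay below it. The members make up 34 subfamilies, of which 17 have a tested member.

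The arrays labelled knockout, called KO A, KO B and KO C, and those labelled wild type, called WT A, WT B and WT C, all came from untreated C57BL/6 mice. The labels give the tissue as colonic mucosa and the cell type as intestinal epithelial cells. The allele, the Cre driver, the sex, the age and whether an array held 1 mouse or a pool are not stated in the labels, and nothing says whether the arrays came from separate animals, so p-values measure the spread between these arrays. Each array measured biotin-labelled RNA by 3' hybridisation, and the 6 arrays limit the precision. The title of the study asks which genes of the colonic mucosa depend on p38a, the stress-activated kinase encoded by Mapk14.

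Cytochrome P450 enzymes are heme-containing monooxygenases that receive electrons from a reductase and insert an oxygen atom into their substrate. Members of families 1 to 4 act largely on drugs, dietary compounds, fatty acids and eicosanoids, and much of what enters through the gut wall meets them first in the epithelium. The higher-numbered families are mostly specialised for sterols, bile acids, steroid hormones, vitamin D and retinoic acid. Many family members in the mouse lie in tandem clusters of closely similar genes.

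A pair of gene clusters holds 5 of the 9 members in the brightest signal bin. All 8 Cyp2d genes on the array lie in a single stretch of chromosome 15 that runs from Cyp2d22 to Cyp2d26 and holds 26 genes, 18 of them Cyp2d genes and 9 of those 18 pseudogenes. The tested Cyp2d genes stand there in the order Cyp2d22, Cyp2d10, Cyp2d9, Cyp2d12, Cyp2d34, Cyp2d13, Cyp2d40 and Cyp2d26. The Cyp2c stretch of chromosome 19, from Cyp2c55 to Cyp2c70, holds 18 genes, 17 of them Cyp2c genes. Of these, 10 were measured and 5 tested, in the order Cyp2c55, Cyp2c65, Cyp2c38, Cyp2c68 and Cyp2c54.

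The 250 bases before the annotated start are printed for 3 Cyp2d genes that were all lower in the arrays labelled KO and for 3 Cyp2c genes that differed from each other in direction, to show how alike the neighbours are. They come from RefSeq on GRCm38.p6, read in the direction of transcription. Capitals mark the letters of a TATA box (TATAAA, or TTTATA where they matched on the opposite strand) and of an HNF4 site (CAAAGTCCA), which hepatocyte nuclear factor 4 is known to bind.
Cyp2d10 (chr15:82407195-82407444, minus strand): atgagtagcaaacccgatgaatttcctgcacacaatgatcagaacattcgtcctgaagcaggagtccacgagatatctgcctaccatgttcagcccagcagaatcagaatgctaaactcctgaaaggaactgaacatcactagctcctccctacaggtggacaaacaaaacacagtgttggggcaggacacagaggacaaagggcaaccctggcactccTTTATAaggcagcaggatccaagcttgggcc
Cyp2d9 (chr15:82452127-82452376, plus strand): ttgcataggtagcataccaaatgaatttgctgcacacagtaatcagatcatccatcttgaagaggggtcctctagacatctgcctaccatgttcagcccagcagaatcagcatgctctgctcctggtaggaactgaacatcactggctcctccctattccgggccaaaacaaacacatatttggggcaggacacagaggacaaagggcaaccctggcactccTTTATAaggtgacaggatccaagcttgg
Cyp2d26 (chr15:82794246-82794495, minus strand): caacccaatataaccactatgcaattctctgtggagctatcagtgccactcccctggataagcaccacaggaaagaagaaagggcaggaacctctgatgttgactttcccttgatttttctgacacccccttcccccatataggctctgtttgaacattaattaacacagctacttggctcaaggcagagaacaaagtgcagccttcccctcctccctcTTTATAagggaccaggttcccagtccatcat
Cyp2c55 (chr19:39006769-39007018, plus strand): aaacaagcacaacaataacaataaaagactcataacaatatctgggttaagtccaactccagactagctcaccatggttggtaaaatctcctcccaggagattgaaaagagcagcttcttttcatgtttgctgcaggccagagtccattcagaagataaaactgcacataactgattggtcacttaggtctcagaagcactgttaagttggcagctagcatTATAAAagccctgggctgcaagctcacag
Cyp2c65 (chr19:39060756-39061005, plus strand): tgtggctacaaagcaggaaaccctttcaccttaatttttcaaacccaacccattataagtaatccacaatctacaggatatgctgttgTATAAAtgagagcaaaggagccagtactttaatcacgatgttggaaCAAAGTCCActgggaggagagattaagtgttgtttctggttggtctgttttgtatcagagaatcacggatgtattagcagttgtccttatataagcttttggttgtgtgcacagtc
Cyp2c68 (chr19:39741102-39741351, minus strand): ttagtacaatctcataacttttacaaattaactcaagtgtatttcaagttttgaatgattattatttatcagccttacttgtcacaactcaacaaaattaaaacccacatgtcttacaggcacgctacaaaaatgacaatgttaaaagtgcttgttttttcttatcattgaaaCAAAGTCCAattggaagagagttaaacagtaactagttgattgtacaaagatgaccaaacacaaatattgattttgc

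The windows of Cyp2d9 and Cyp2d10 were identical at 82.28% of aligned positions, whereas every other pair of these 6 windows matched at 42% to 52%. Cyp2d10, Cyp2d9, Cyp2d26 and Cyp2c55 match the letters of the TATA box at 31, 28, 31 and 29 bases before the start. In the Cyp2d genes the match was on the opposite strand, and in Cyp2c55 on the printed strand. Cyp2c65 has the letters TATAAA at 162 bases, on the printed strand. Only these exact letters were searched, so the tatataag printed nearer the start of Cyp2c65 was not marked. The HNF4 site lies 116 bases before the start in Cyp2c65 and 77 bases before it in Cyp2c68. An entry was found for 51 of the 72 members and for 22 of the 31 tested. Both strands were searched, and letters of one motif could overlap those of another. TATAAA stood in 7 of the 22 tested members and in 12.37% of 32851 promoter windows of this length. CAAAGTCCA stood in 2 of the 22 and in 0.38% of all windows. GCGTG, the core bound by the aryl hydrocarbon receptor, stood in 5 of the 22 and in 28.16% of all windows. The nuclear receptor half-site AGGTCA was found in 1 of the 22 and in 14.02% of all windows, and AGTTCA in 3 of the 22 and in 11.84% of all windows. A match of letters is a description and not a binding site.

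Before the comparisons, several properties of the arrays bear on how the values read. The deposited signals were not scaled to one target: the trimmed mean per array was 192 to 222 in the arrays labelled KO and 117 to 188 in those labelled WT. The ratio of 3' to 5' Gapdh signal was 0.859 to 0.954 in the arrays labelled KO and 0.989 to 1.45 in those labelled WT, with WT C at 1.45. Every array labelled KO thus lay below every array labelled WT, and ratio and label are confounded. A fit that holds the ratio cannot separate them, so its values below are alternatives and not corrected effects. Levels are given on the log2(signal + 16) scale, after the 6 arrays were brought to one distribution by quantile normalization. A difference is KO minus WT on that scale, which understates the difference of a dim gene. Mapk14 read 9.72, 9.91 and 9.73 in the arrays labelled KO, against 9.31, 9.44 and 9.37 in those labelled WT, a difference of 0.41 (SE 0.14, limma adjusted p = 0.902, exact permutation p = 0.1, two-sided, the smallest for 3 against 3). The gene named in the label was thus not lower in the arrays labelled KO, and whether its probes lie in a deleted part is not known, so the labels are used here as labels only. Marker genes went with the labelled tissue. The 6 epithelial markers averaged 12.94 to 13.14 in the arrays labelled KO and 12.91 to 13.14 in those labelled WT, and of the hepatocyte list 5 of 6 genes were measured, with means of 6.48 to 6.63 in the arrays labelled KO and 6.44 to 6.62 in those labelled WT. Within that list Fgb lay below the filter and Alb did not exceed 5.59 in any array, but Ttr reached 10.68 and Tat 9.33, so the list was not uniformly low. WT B stood apart in pancreatic enzyme genes, whose mean over 4 of 6 listed genes was 6.96 there and 4.85 to 4.99 in the other 5 arrays.

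The brightest P450 probe sets of this mucosa belonged to Cyp2c55, Cyp2c65 and Cyp3a13, and no tested member differed between the labels after adjustment. Cyp2c55, an arachidonic acid hydroxylase that is abundant in mouse colon, averaged 12.56 ± 0.41 in the arrays labelled KO and 12.50 ± 0.84 in those labelled WT (SD, n = 3 each). Subfamilies 2c, 2d and 4f supplied 17 of the 31 tested genes, with 5, 8 and 4. At the other end, 41 members stayed under the filter of 5.10, a signal of 18.4. All 8 Cyp2d genes passed it, whereas 5 of 11 Cyp2c genes, 4 of 7 Cyp4f genes, 1 of 5 Cyp3a genes and 1 of 5 Cyp2j genes did.

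**Figure D1:**
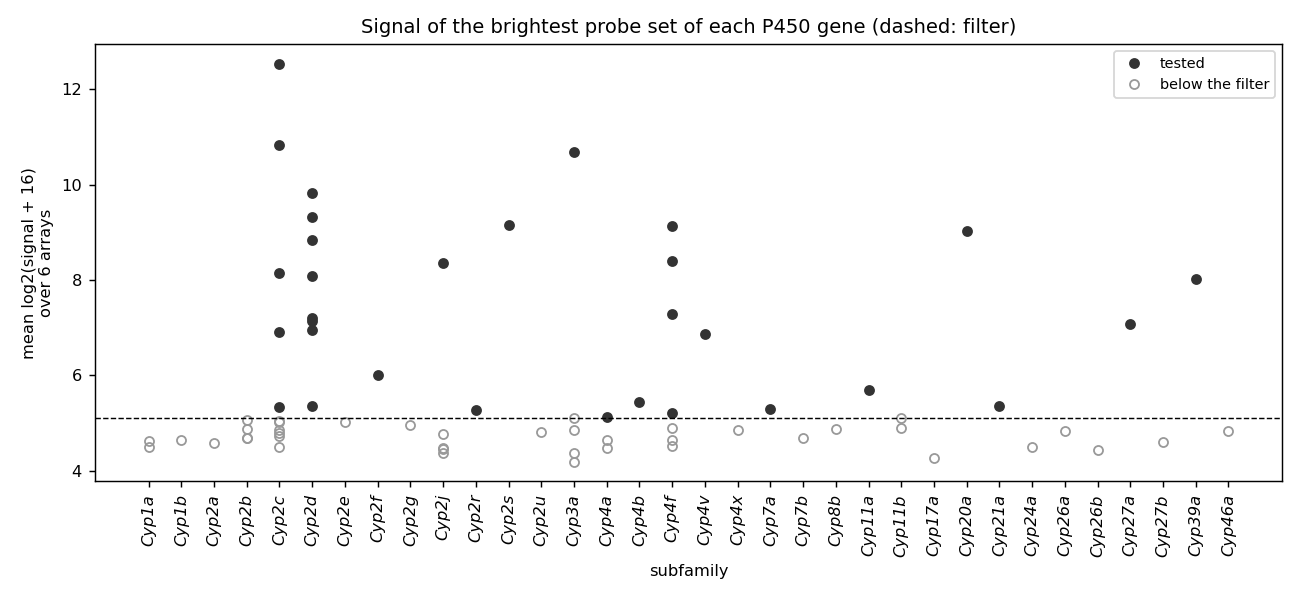
Mean over 6 arrays of log2(signal + 16), one point per P450 gene, by subfamily, with the filter at 5.10 as a line. Of the 72 genes, 31 lie above the filter and 41 below it, and Cyp2c55 is the brightest.

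Limma's moderated test with Benjamini-Hochberg adjustment over all 12437 genes called 0 of the 31 members, and 0% of all genes, at an adjusted p under 0.05. Their adjusted p-values ran from 0.902 to 0.998. Without adjustment, 4 members had a p under 0.05, 12.9% of the members beside 3.94% of all genes. Cyp2c68 and Cyp39a1 were higher in the arrays labelled KO (1.74% of all genes were so called), and Cyp2d12 and Cyp4b1 lower (2.2% of all genes). Groups did not overlap for 3 members, 9.68%, beside 9.06% of all genes, which is near the background. The 3 were Cyp39a1 and Cyp4v3, higher in the arrays labelled KO (4.68% of all genes were separate in that direction), and Cyp4b1, lower (4.38% of all genes). Cyp4b1, in both of these counts, averaged 5.103 in the arrays labelled KO, just under the filter of 5.105. It was tested only because its arrays labelled WT were higher. Differences of at least 2-fold occurred for 3 members, 9.68%, beside 0.587% of all genes. These were Cyp2c68, higher in the arrays labelled KO (0.129% of all genes), and Cyp2d10 and Cyp2d12, lower (0.458% of all genes). None of these 3 had separate groups.

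The members' differences went both ways and, like their standard errors, were larger in the median than those of all genes. The median size of the difference was 0.34 over the 31 members and 0.18 over all tested genes, and the median standard error was 0.32 over the members and 0.22 over all genes. In direction, 14 members were higher and 17 lower in the arrays labelled KO, 54.8% lower, where 46.8% of all genes were lower. The median difference was -0.05 over the members and 0.02 over all genes. The split depends on scaling: with signals as deposited, where the median of all genes was 0.43, 22 members were higher and 9 lower, and 9.30% of all genes were lower. With each array centred on its median, where that of all genes was 0.20, 15 were higher and 16 lower, and 26.2% of all genes were lower.

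**Figure D2:**
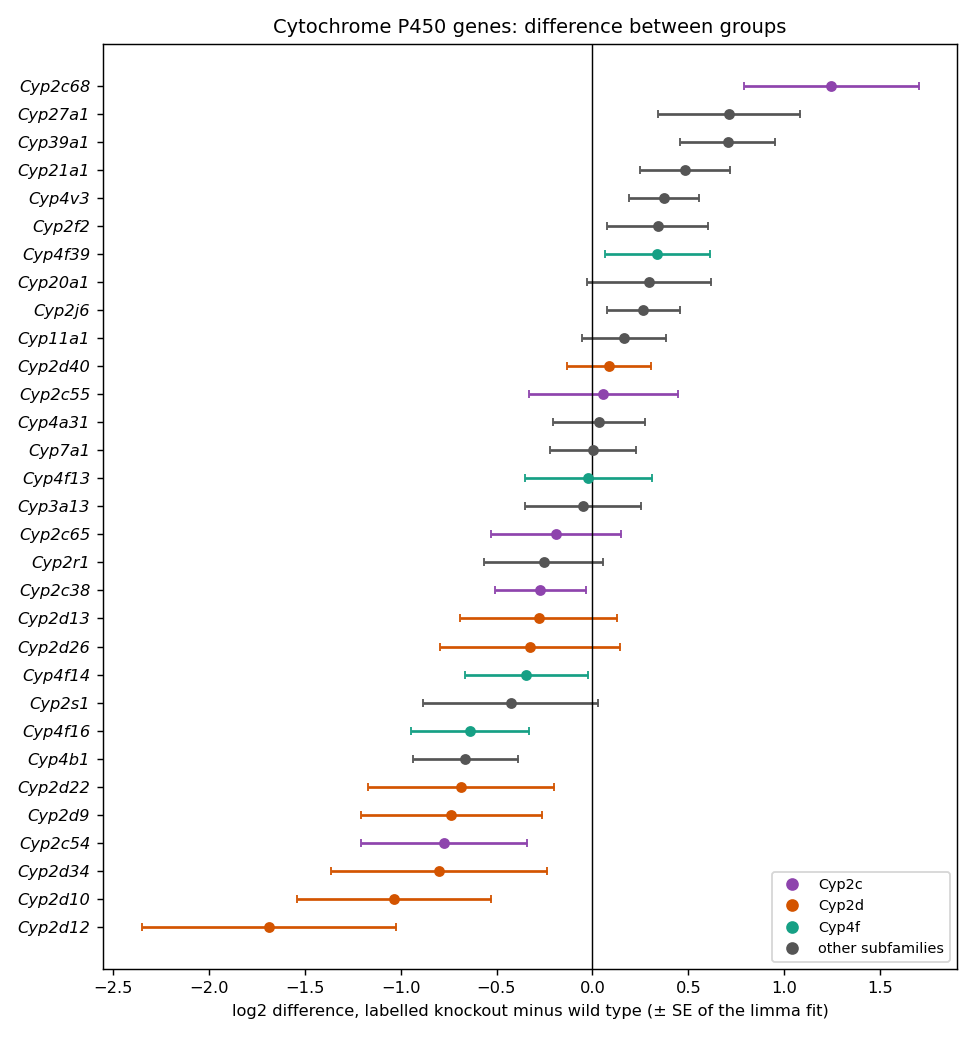
Difference in log2(signal + 16), arrays labelled KO minus arrays labelled WT, for the 31 tested P450 genes sorted by size, with bars of 1 SE. Cyp2c68 stands at 1.24 and Cyp2d12 at -1.69, and 5 of the 6 lowest differences are those of Cyp2d genes.

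By signal level, the bright members leaned to lower values in the arrays labelled KO and the dim ones did not. All tested genes were split into 3 equal bins by mean signal, at 6.68 and 8.53. Of the 9 bright members 7 were lower (3 with signals as deposited and 5 with arrays centred on their medians, with 8 of 9 under the median of all genes in both), with a median difference of -0.34, beside 0.03 over all bright genes. Of the 12 in the middle bin 7 were lower, with a median of -0.15, beside 0.04. Of the 10 dim members 3 were lower, with a median of 0.06, beside -0.01. The filter shaped this dim count in part. Of the lower ones, Cyp4b1 and Cyp2c54 averaged 5.103 and 4.94 in the arrays labelled KO, below the filter, and were tested through their arrays labelled WT. Of the higher ones, Cyp4f39 averaged 5.05 in the arrays labelled WT and was tested through its arrays labelled KO. The Cyp2d genes supply 3 of the 9 bright and 4 of the 12 middle members, so level and subfamily are not independent here. Against WT B alone 2 of 8 bright members were lower, and in a fit that held the Gapdh ratio 3 of 9 were. Outside Cyp2d, the median over 23 members was 0.03.

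**Figure D3:**
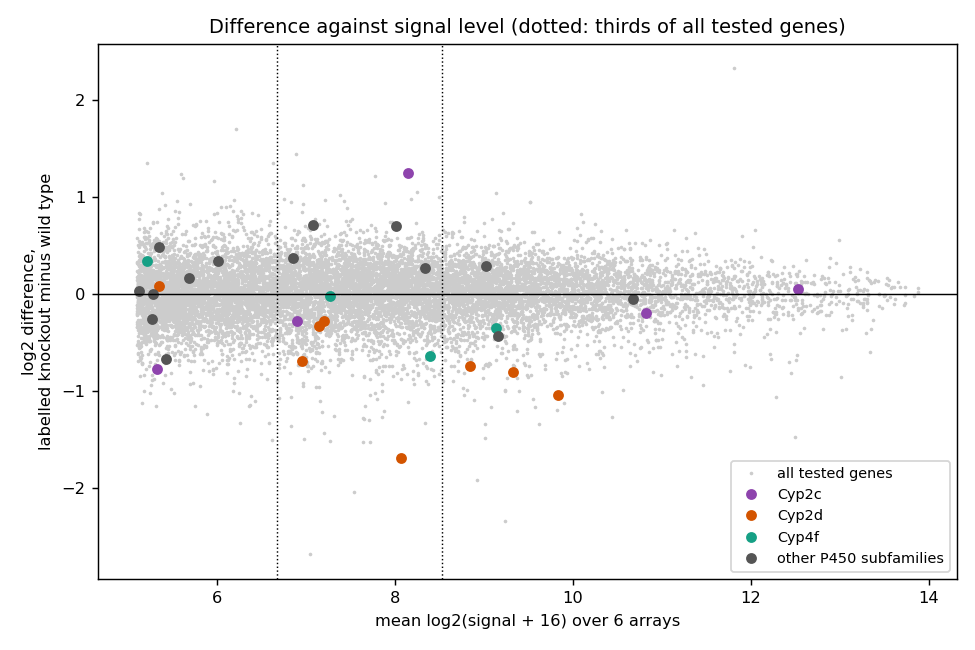
Difference KO minus WT in log2(signal + 16) against mean signal for the tested P450 genes (coloured by subfamily) and all tested genes (grey), with lines at the limits of the 3 bins (6.68 and 8.53). The bright bin holds 7 of 9 genes below 0, and the dim bin 3 of 10. In the dim bin, Cyp4b1, Cyp2c54 and Cyp4f39 each passed the filter through the arrays of one label.

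The Cyp2d genes had the lowest median difference of the 3 subfamilies with several tested genes, though with the Gapdh ratio held the Cyp2d median was 0.09 and the Cyp4f median -0.058. Because that ratio separates the labels, the fit that held it cannot tell ratio from label. Of the 8 genes 7 were lower in the arrays labelled KO, the median difference was -0.71, and 0 of 8 were called or had separate groups. With signals as deposited 8 of 8 lay under the median of all genes, and against WT B alone 3 of 8 did. Cyp2d12 read 6.30, 7.31 and 8.08 in the arrays labelled KO, against 8.62, 7.77 and 10.37 in those labelled WT. The difference was -1.69 (SE 0.66, n = 3 each), 3.22-fold lower, and KO C at 8.08 lay above WT B at 7.77. It was -0.99 without WT C, -0.57 against WT B alone and -0.26 in a fit that held the Gapdh ratio. Cyp2d10 read 8.48, 9.40 and 10.06 in the arrays labelled KO, against 10.39, 9.42 and 11.23 in those labelled WT, a difference of -1.04 (SE 0.50, n = 3 each) and 2.05-fold lower. KO C again lay above WT B, and the difference was -0.59 without WT C, -0.63 without KO A, -0.11 against WT B alone and -0.12 with the Gapdh ratio held. Cyp2d34 read 8.10, 8.81 and 9.87 in the arrays labelled KO, against 9.69, 8.74 and 10.76 in those labelled WT, with a difference of -0.80 (SE 0.56, n = 3 each). Cyp2d9, the testosterone 16alpha-hydroxylase of male mouse liver, read 7.76, 8.61 and 9.06 in the arrays labelled KO, against 9.38, 8.24 and 10.01 in those labelled WT, with a difference of -0.74 (SE 0.47, n = 3 each). These 4 genes shared one pattern over the arrays, low in KO A and high in WT C. Without WT C the difference was -0.29 for Cyp2d34 and -0.34 for Cyp2d9, and against WT B alone both were above 0, at 0.19 and 0.24. Cyp2d22, regarded as the closest mouse counterpart of human CYP2D6, read 5.82, 6.52 and 7.51 in the arrays labelled KO, against 7.17, 6.63 and 8.10 in those labelled WT, with a difference of -0.69 (SE 0.49, n = 3 each). The dimmer Cyp2d13 read 6.33, 7.23 and 7.63 in the arrays labelled KO, against 7.35, 6.69 and 7.99 in those labelled WT, a difference of -0.28 (SE 0.41, n = 3 each). Cyp2d26, at the far end of the cluster, read 6.89, 6.26 and 7.80 in the arrays labelled KO, against 6.76, 6.98 and 8.19 in those labelled WT, a difference of -0.32 (SE 0.47, n = 3 each). Groups overlapped for all of these. Cyp2d40 departed from the other 7 genes: it was dim and read 5.69, 5.08 and 5.42 in the arrays labelled KO, against 5.31, 5.44 and 5.19 in those labelled WT, a difference of 0.09 (SE 0.22, n = 3 each).

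Within each label, most Cyp2d genes put the arrays in one order. KO A was the lowest and KO C the highest of the arrays labelled KO, and WT B the lowest and WT C the highest of those labelled WT, in 6 of 8 Cyp2d genes (75%). The same order held in 6 of 23 members outside Cyp2d (26.1%) and in 9.09% of all tested genes. These 6 were Cyp2c55, Cyp3a13, Cyp2s1 and Cyp4f14, all bright, and Cyp4f16 and Cyp2c38 of the middle bin. The order is thus not particular to Cyp2d, and no dim member showed it. It was described from the Cyp2d values themselves, so its count in them is no test. WT C was the highest of all 6 arrays in 7 of 8 Cyp2d genes and in 30.3% of all genes. The mean of the 8 Cyp2d genes was 6.92 in KO A, 7.40 in KO B and 8.18 in KO C, against 8.08 in WT A, 7.49 in WT B and 8.98 in WT C. WT B, the array high in pancreatic enzyme genes, thus lay between KO B and KO C. The arrays that share a replicate letter are not known to share anything else.

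Several marker genes differed across the same arrays. Of the colonocyte list, 5 of 6 genes were measured, and their mean was 11.80, 12.30 and 12.47 in the arrays labelled KO, against 12.61, 12.15 and 12.70 in those labelled WT. Its members Car4 and Aqp8, a carbonic anhydrase and a water channel of the mature surface colonocyte, varied most: Aqp8 read 10.79, 11.98 and 12.08 in the arrays labelled KO, against 12.72, 11.44 and 12.94 in those labelled WT. Of the T cell list, 4 of 4 genes were measured, with means of 5.86 to 6.80 in the arrays labelled KO and 6.17 to 7.76 in those labelled WT. Of the macrophage list, 4 of 4 were measured, with means of 6.03 to 6.99 in the arrays labelled KO and 6.04 to 7.14 in those labelled WT. Tat, a tyrosine-degrading enzyme of the hepatocyte list, read 7.13, 7.24 and 7.80 in the arrays labelled KO, against 8.57, 7.05 and 9.33 in those labelled WT, the same order within each label. The rest of that list went the other way: of its 4 tested genes 3 were higher in the arrays labelled KO, and Tat was the 1 lower. Ttr read 9.34, 10.68 and 9.96 in the arrays labelled KO, against 9.29, 9.64 and 8.20 in those labelled WT. No measured marker of the colonocyte, T cell and macrophage lists was at 0 signal. Fgb of the hepatocyte list, at 4.06 to 4.15, lay close to the value of 4 that a signal of 0 takes. The Gapdh 3' to 5' ratio was highest in WT C as well. The part of each of these in the Cyp2d values was not tested, and in bulk mucosa fewer cells of a type and less RNA per cell cannot be told apart. Against WT B alone the Cyp2d median was -0.0072, and in a fit that held the Gapdh ratio it was 0.09. It was -0.29 without WT C and -1.11 without WT B.

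**Figure D4:**
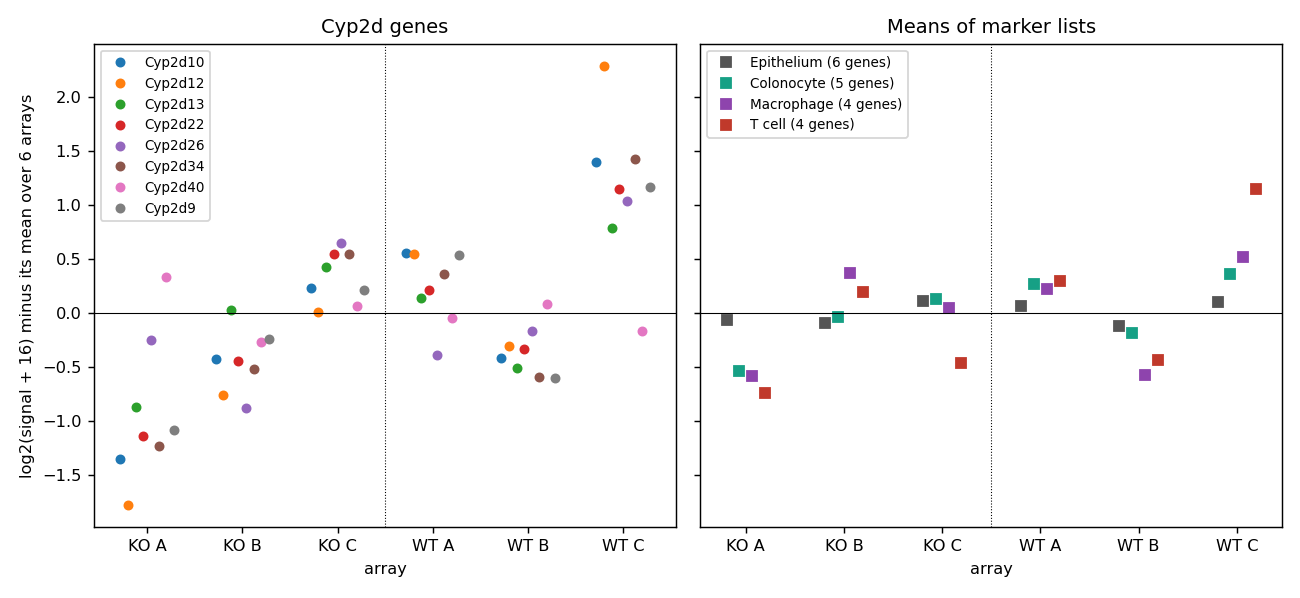
For each array, log2(signal + 16) minus its mean over the 6 arrays, for the 8 Cyp2d genes (left) and for the means of 4 marker lists (right), arrays labelled KO left of those labelled WT. In this plot 7 Cyp2d genes peak in WT C and 6 are lowest in KO A. The T cell, colonocyte and macrophage means also peak in WT C and are lowest in KO A, the macrophage mean with WT B almost as low. The epithelium mean peaks in KO C and is lowest in WT B.

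The Cyp2c genes, several of which oxidise arachidonic and linoleic acid, did not go one way. Of 5 tested, 3 were lower in the arrays labelled KO, the median difference was -0.19 (0.27 with signals as deposited and 0.67 against WT B alone), and single genes ran from -0.78 to 1.24. Cyp2c55 read 12.20, 12.47 and 13.01 in the arrays labelled KO, against 12.58, 11.63 and 13.30 in those labelled WT, a difference of 0.06 (SE 0.39, n = 3 each). Cyp2c65, its neighbour, read 10.93, 10.26 and 11.02 in the arrays labelled KO, against 10.87, 10.27 and 11.63 in those labelled WT, a difference of -0.19 (SE 0.34, n = 3 each). The groups overlapped for both genes, and leaving out single arrays put Cyp2c55 between -0.38 and 0.44. Cyp2c68 had the highest difference of the 5, at 7.67, 9.01 and 9.64 in the arrays labelled KO, against 7.14, 7.64 and 7.80 in those labelled WT. That was 2.37-fold higher, a difference of 1.24 (SE 0.46, n = 3 each), and KO A lay below WT C. Without KO C it was 0.81, without KO A 1.78, and it stayed above 0 in each of the 19 alternatives run (0.81 to 1.78). Cyp2c38 read 6.44, 6.69 and 7.19 in the arrays labelled KO, against 6.96, 6.92 and 7.25 in those labelled WT, a difference of -0.27 (SE 0.24, n = 3 each). Cyp2c54, near the filter, read 4.26, 5.50 and 5.06 in the arrays labelled KO, against 6.58, 5.30 and 5.27 in those labelled WT, a difference of -0.78 (SE 0.43, n = 3 each), with WT A far above the other arrays, and it was -0.43 without KO A. Its mean in the arrays labelled KO was 4.94, below the filter, and without WT A the gene was not tested. The lower end of the Cyp2c range, -0.78, is the value of this gene. The other 6 Cyp2c genes stayed below the filter, among them Cyp2c29 and Cyp2c70.

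**Figure D5:**
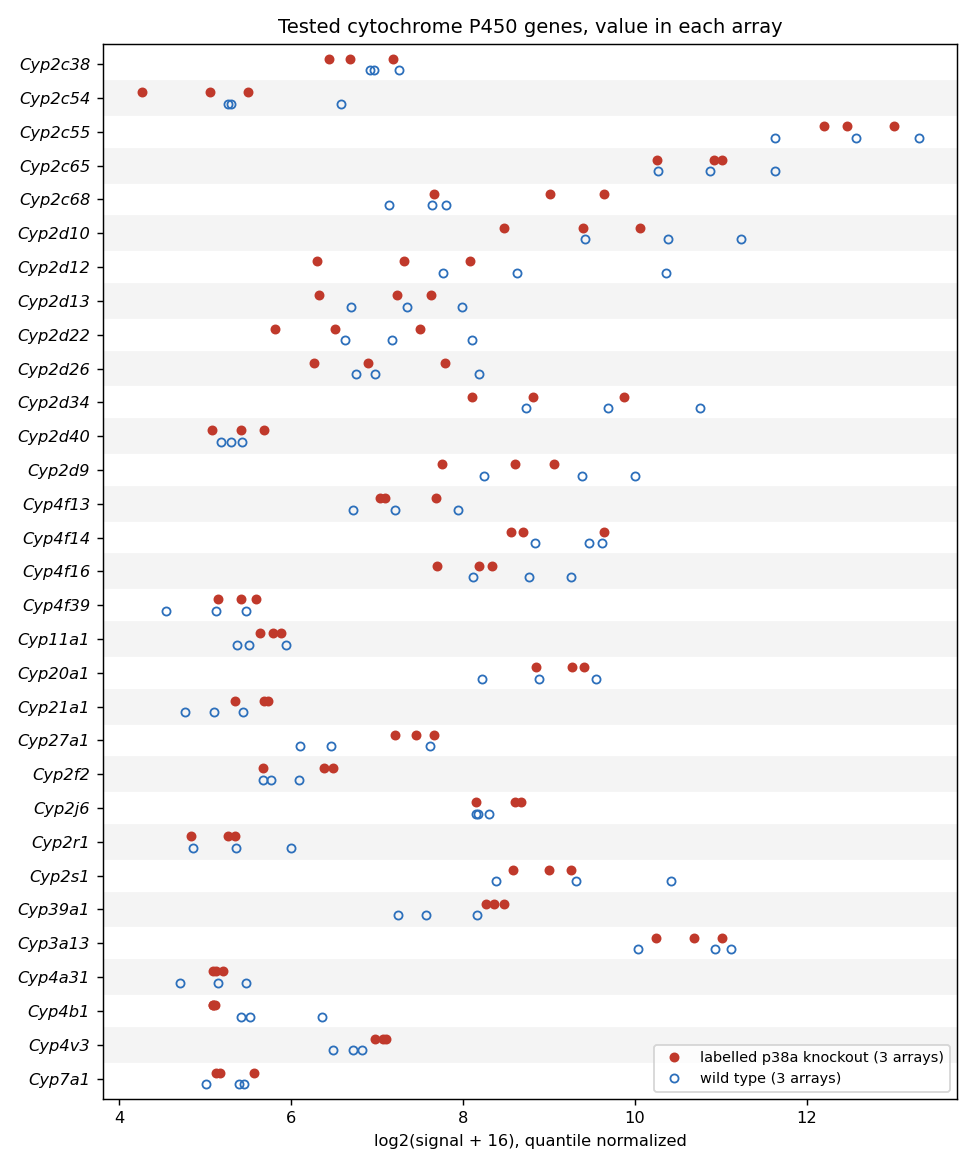
log2(signal + 16) in each array for the tested P450 genes, filled red points for arrays labelled KO and open blue points for arrays labelled WT. Cyp39a1 and Cyp4v3 have all red points above the blue ones and Cyp4b1 all below, and in the other 28 genes the groups overlap.

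For the other tested members of families 2 and 3, and for Cyp20a1, the values in the arrays labelled KO and WT overlapped. Cyp3a13, the intestinal member of the mouse Cyp3a subfamily, read 10.25, 10.68 and 11.01 in the arrays labelled KO, against 10.93, 10.04 and 11.12 in those labelled WT, a difference of -0.05 (SE 0.30, n = 3 each). Cyp2s1, an enzyme of epithelia outside the liver that dioxin-type ligands induce, read 8.58, 9.01 and 9.26 in the arrays labelled KO, against 9.32, 8.38 and 10.42 in those labelled WT, a difference of -0.43 (SE 0.46, n = 3 each). It followed the array order of the Cyp2d genes, and so did Cyp3a13. Cyp2j6, which acts on fatty acids, read 8.61, 8.16 and 8.67 in the arrays labelled KO, against 8.18, 8.16 and 8.31 in those labelled WT, a difference of 0.27 (SE 0.19, n = 3 each). Its arrays overlapped because KO B lay under 2 of the arrays labelled WT. Cyp2f2, best known from the club cells of the lung, had a difference of 0.34 (SE 0.26, n = 3 each), at means of 6.19 ± 0.44 in the arrays labelled KO and 5.85 ± 0.22 in those labelled WT (SD, n = 3 each). Cyp20a1, an orphan P450 with no settled substrate, read 9.41, 8.85 and 9.27 in the arrays labelled KO, against 8.88, 9.54 and 8.22 in those labelled WT, a difference of 0.29 (SE 0.32, n = 3 each). Its 3 probe sets above the filter disagreed, from -0.10 to 0.54.

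Family 4 holds the omega-hydroxylases of fatty acids and eicosanoids, and its tested members differed in both directions. Cyp4f14, which omega-hydroxylates leukotriene B4, read 8.56, 8.70 and 9.64 in the arrays labelled KO, against 9.47, 8.84 and 9.62 in those labelled WT, a difference of -0.34 (SE 0.32, n = 3 each). Cyp4f16 read 7.70, 8.19 and 8.34 in the arrays labelled KO, against 8.77, 8.11 and 9.26 in those labelled WT, a difference of -0.64 (SE 0.31, n = 3 each), while its second probe set above the filter stood at 0.02. Without WT C it was -0.38, against WT B alone -0.037 and with the Gapdh ratio held -0.029. Cyp4f13 read 7.09, 7.03 and 7.69 in the arrays labelled KO, against 7.21, 6.72 and 7.94 in those labelled WT, a difference of -0.02 (SE 0.33, n = 3 each). Cyp4f39, an enzyme of ultra-long fatty acids in the skin barrier, was dim and had a difference of 0.34 (SE 0.27, n = 3 each). Its mean was 5.39 in the arrays labelled KO and 5.05 in those labelled WT. The latter lay below the filter of 5.10, so the gene was tested through the arrays labelled KO. For Cyp4f as a whole, 3 of 4 tested genes were lower and the median was -0.18, which turned to 0.32 with signals as deposited. Among the 31 tested members, Cyp4b1 was the one with all arrays labelled KO below all labelled WT. It read 5.10, 5.10 and 5.12 in the arrays labelled KO, against 5.52, 5.41 and 6.36 in those labelled WT, a difference of -0.66 (SE 0.27, n = 3 each) with limma adjusted p = 0.902 (exact permutation p = 0.1, two-sided). The 3 arrays labelled KO lay at the filter, with their mean of 5.103 just under its 5.105. The gene was thus tested through its arrays labelled WT, and the separation is read with that limit. The difference was -0.38 without WT C, -0.33 against WT B alone and -0.064 in a fit that held the Gapdh ratio. Cyp4v3, the mouse ortholog of human CYP4V2, read 6.97, 7.07 and 7.11 in the arrays labelled KO, against 6.49, 6.72 and 6.82 in those labelled WT. The groups did not overlap and the difference was 0.37 (SE 0.18, n = 3 each), with limma adjusted p = 0.902 (exact permutation p = 0.1, two-sided). Any gene with separate groups takes this permutation p with 3 arrays a label. For Cyp4v3 and Cyp4b1 it thus restates the separation and is no further test. A second probe set above the filter stood at 0.42, and the alternatives ran from 0.26 to 0.77. Cyp4a31, at the filter, had a difference of 0.03 (SE 0.24, n = 3 each).

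Among the enzymes of sterols and bile acids, Cyp39a1 and Cyp27a1 were both higher in the arrays labelled KO, without passing the test. Cyp39a1, the 7alpha-hydroxylase of 24-hydroxycholesterol, read 8.47, 8.36 and 8.27 in the arrays labelled KO, against 7.57, 8.17 and 7.25 in those labelled WT. All 3 arrays labelled KO lay above all 3 labelled WT, the difference was 0.71 (SE 0.25, n = 3 each), 1.63-fold, with limma adjusted p = 0.902 (exact permutation p = 0.1, two-sided). Separate groups fix that permutation p, so it restates the separation and is no further test. Against WT B alone the difference was 0.21, and in a fit that held the Gapdh ratio 0.22. Cyp27a1, the mitochondrial sterol 27-hydroxylase, read 7.21, 7.67 and 7.45 in the arrays labelled KO, against 6.47, 6.10 and 7.62 in those labelled WT, a difference of 0.71 (SE 0.37, n = 3 each), and WT C lay among the arrays labelled KO. It was 0.39 without WT B, 1.19 without WT C, 1.42 against WT B alone and 1.68 with the Gapdh ratio held, and 0.39 as the mean of its probe sets. Cyp7a1, the rate-limiting enzyme of bile acid synthesis in liver, was near the filter and read 5.13, 5.57 and 5.17 in the arrays labelled KO, against 5.39, 5.01 and 5.45 in those labelled WT. Cyp7b1, the oxysterol 7alpha-hydroxylase, and Cyp8b1, the sterol 12alpha-hydroxylase, stayed below the filter. A list of small bowel genes was set beside these values: of 7 measured from a list of 8, the mean was 5.39 to 5.99 in the arrays labelled KO and 5.18 to 5.74 in those labelled WT. Rbp2 read 5.83, 5.95 and 5.90 in the arrays labelled KO, against 4.64, 4.43 and 4.55 in those labelled WT. The difference was 1.35 (SE 0.18, limma adjusted p = 0.213). Its mean in the arrays labelled WT was 4.54, below the filter, so the gene was tested through its arrays labelled KO. Of the 4 tested genes of this list 3 were higher in the arrays labelled KO and 1 lower. Slc10a2 stood at 1.35, Gata4 at 0.21 (SE 0.19) and Fabp6 at -0.74 (SE 0.76), while Apoa4 and Lct lay below the filter. The part of the small bowel genes in the P450 values was not tested.

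The steroidogenic and vitamin D members were dim. Cyp21a1, the steroid 21-hydroxylase, read 5.35, 5.69 and 5.73 in the arrays labelled KO, against 5.11, 5.44 and 4.77 in those labelled WT, a difference of 0.48 (SE 0.24, n = 3 each), and KO A lay below WT B. It was 0.16 against WT B alone and 0.095 with the Gapdh ratio held. Cyp11a1, the cholesterol side-chain cleavage enzyme, read 5.64, 5.88 and 5.79 in the arrays labelled KO, against 5.37, 5.94 and 5.51 in those labelled WT, a difference of 0.16 (SE 0.22, n = 3 each). Cyp2r1, a vitamin D 25-hydroxylase, read 4.83, 5.26 and 5.35 in the arrays labelled KO, against 5.36, 6.00 and 4.86 in those labelled WT, a difference of -0.25 (SE 0.31, n = 3 each). Cyp27b1, which makes the active hormone, and Cyp24a1, which inactivates it, both lay below the filter in the mean of the 6 arrays, with no array of either above 4.92. Vdr, the receptor, was bright, with a mean of 10.16 ± 0.27 in the arrays labelled KO and 10.42 ± 0.33 in those labelled WT (SD, n = 3 each), a difference of -0.26.

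The 41 members below the filter averaged 4.19 to 5.10, close to the value of 4 that a signal of 0 takes on this scale, and were not tested. They include Cyp1a1 and Cyp1b1, targets of the aryl hydrocarbon receptor, whose highest values in any array were 4.94 and 5.11. They also include Cyp26b1, which clears retinoic acid and read 4.40 to 4.48 over the 6 arrays, and all 4 Cyp2b genes. At the threshold, Cyp3a25 and Cyp11b2 averaged 5.10 just below it and Cyp4a31 5.13 just above it. One of the 41, Cyp3a25, had an array above 6. It read 4.72, 4.27 and 6.60 in the arrays labelled KO, against 4.09, 4.17 and 6.74 in those labelled WT, high in KO C and WT C alike. The deposited signals behind these 2 values were 97.4 in KO C and 67.8 in WT C, against 0.91 to 10.8 in the other 4 arrays. Fabp6, an ileal bile acid binding protein, was also highest in those 2 arrays, at 9.21 in KO C and 9.65 in WT C, and read 6.50 to 7.97 in the other 4. The other ileal bile acid gene of the small bowel list, the transporter gene Slc10a2, shared this pattern in part. It read 7.64, 6.45 and 7.82 in the arrays labelled KO, against 5.20, 5.70 and 6.96 in those labelled WT. KO C and WT C were the highest of their labels, but KO A at 7.64 lay above WT C. The difference was 1.35 (SE 0.50, limma adjusted p = 0.902). The part of either in the Cyp3a25 values was not tested. No other gene below the filter exceeded 5.51 in any array.

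The genes that regulate or serve the P450 enzymes showed no called difference either. Of 17 listed regulators 14 were tested, 7 higher and 7 lower in the arrays labelled KO, with 0 called and a median difference of -0.03, beside 0.02 over all genes. The 3 with the smallest p were Nfe2l2, the oxidative stress factor, with a difference of 0.30 (SE 0.15), Tiparp, an aryl hydrocarbon receptor target that represses the receptor, with -0.34 (SE 0.19), and Vdr (SE 0.21). In 1 of the 14 the groups did not overlap, beside 9.06% of all tested genes, which is near the background. This was Arnt, the dimerisation partner of the aryl hydrocarbon receptor. It was lower in the arrays labelled KO (4.38% of all genes were separate in that direction), with a difference of -0.20 (SE 0.17). Ahr, the receptor, and Hnf4a overlapped, with differences of 0.28 and -0.09. Of 9 electron donors and heme supply genes 7 were tested, 5 higher and 2 lower, with 0 called and a median of 0.16. The smallest p-values there belonged to Cyb5a and Cyb5b, the cytochromes b5 of the endoplasmic reticulum and the mitochondrial outer membrane, and to Fdx1, the electron donor of the mitochondrial P450 enzymes, at 0.24, 0.21 and 0.16. Cyb5a was the 1 of the 7 whose groups did not overlap, beside 9.06% of all tested genes (4.68% higher, as Cyb5a was). A single gene among 7 is too few to set apart from that share. Of 8 downstream and partner enzymes 6 were tested, 3 higher and 3 lower, with 0 called and a median of 0.04. Ephx1 and Ephx2, the epoxide hydrolases that open P450-made epoxides, stood at 0.21 and 0.09, and Tbxas1, thromboxane synthase, at 0.11.

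Sequence shared between P450 genes bears on how far a probe set reads 1 gene. Of the 31 tested probe sets, 27 carry no suffix for shared probes. Cyp2d9 and Cyp2f2 are on probe sets that the maker marks for several transcripts of one gene, and Cyp2c65 and Cyp4v3 on sets marked as shared between genes, so their values are uncertain. For 6 genes several probe sets lay above the filter, and their signs agreed in 4 (Cyp2d13, Cyp2d22, Cyp2j6 and Cyp4v3). The Cyp2d genes in particular share sequence and a chromosome stretch, so the 8 genes are not 8 separate observations.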

How the data were processed

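The deposited values are linear signal intensities per probe set, which the authors made with MAS5 per the submitters' processing notes; no build or scaling target is stated there. Control probe sets (64) were left out. From the intensities, log2(signal + 16) was computed, quantile-normalized, reduced to the brightest probe set per gene and kept where the mean reached the 40th percentile of probe-set means (5.10). Arrays labelled KO and WT (3 each) were compared with limma 3.58.1 in R 4.3.3 (lmFit, eBayes with a trend), with Benjamini-Hochberg adjustment over 12437 genes at 0.05, and the procedure was tested on simulated data. Gene symbols come from the platform annotation, and 4 probe sets with several symbols, a Cyp gene among them, were left out. Replicate letters are shared between the labels, but deviations of same-lettered arrays correlated at -0.04, -0.11 and 0.45, so the letters were not taken as pairs. Genes named were those with separate groups, the 8 with the smallest p in each direction, the 8 brightest, the brightest of each subfamily with 3 or more tested genes and 7 chosen by role; the other tested members, and Cyp3a25 and others below the filter, were named after their values were seen, so that every tested member is accounted for. The members, gene lists and marker lists were chosen with earlier results of these data known. Alternatives covered scaling, pseudocount, filter, probe-set choice, variance trend, array weights, a replicate block, WT B as the only control, the Gapdh ratio and leaving out each array.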

Additional observations from a re-analysis of the deposited data

How the results depend on the processing

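Of the 31 tested genes, 12 kept their direction in every one of the 19 alternatives that could be run for them, and 19 reversed in at least one; the causes were not tested. All values are log2 differences, KO minus WT. The number called was 0 except with array weights, where 15 members and 21.9% of all genes were called; those weights did not converge, and gene-by-gene weights, chosen after seeing the data, called 1, Cyp39a1 (limma adjusted p = 0.0446, 1.37% of all genes), with Cyp2c55 at -0.058, Cyp2d40 at -0.0012 and Cyp4a31 at -0.0096. The unconverged weights put Cyp2c55 at -0.065, Cyp4a31 at -0.017 and Cyp7a1 at -0.026. Signals as deposited gave 7 members with separate groups (24.9% of all genes), a Cyp2c median of 0.27 and a Cyp4f median of 0.32, and Cyp2c38 at 0.13, Cyp2c65 at 0.27, Cyp2d13 at 0.16, Cyp2d26 at 0.13, Cyp2s1 at 0.10, Cyp3a13 at 0.42, Cyp4f13 at 0.46 and Cyp4f14 at 0.18. Centring each array on its median gave 5 separate members (9.64%), with Cyp2c65 at 0.038, Cyp3a13 at 0.19, Cyp4a31 at -0.021, Cyp4f13 at 0.22 and Cyp7a1 at -0.040. Without a filter 7 members were separate (9.32%), out of 72. WT replicate B as the only control, the lone array taken to vary like the others, gave 14 separate members (48.6%), a Cyp2c median of 0.67 and a Cyp2d median of -0.0072, with Cyp11a1 at -0.18, Cyp20a1 at -0.37, Cyp2c65 at 0.45, Cyp2d13 at 0.39, Cyp2d26 at 0.00084, Cyp2d34 at 0.19, Cyp2d40 at -0.042, Cyp2d9 at 0.24, Cyp2s1 at 0.57, Cyp3a13 at 0.59, Cyp4f13 at 0.58, Cyp4f14 at 0.13 and Cyp4f39 at -0.087. The Gapdh covariate separates the labels completely, so the values it gave are not corrected effects. It gave a Cyp2c median of 0.48 and a Cyp2d median of 0.09, with Cyp11a1 at -0.0056, Cyp20a1 at -0.53, Cyp2c65 at 0.48, Cyp2d13 at 0.39, Cyp2d22 at 0.029, Cyp2d26 at 0.27, Cyp2d34 at 0.19, Cyp2d40 at -0.11, Cyp2d9 at 0.15, Cyp2s1 at 0.71, Cyp3a13 at 0.45, Cyp4f13 at 0.59 and Cyp4f39 at -0.24. Leaving out single arrays gave 3 to 11 separate members (13.8% to 36.8% of all genes), a Cyp2d median of -1.11 to -0.29, and Cyp20a1 between -0.037 and 0.62, Cyp2c55 -0.38 and 0.44, Cyp2c65 -0.51 and 0.16, Cyp2d13 -0.60 and 0.082, Cyp2d26 -0.73 and 0.12, Cyp2d40 -0.061 and 0.24, Cyp2r1 -0.54 and 0.043, Cyp2s1 -0.92 and 0.099, Cyp3a13 -0.38 and 0.16, Cyp4a31 -0.17 and 0.059, Cyp4f13 -0.30 and 0.31, and Cyp7a1 -0.14 and 0.090. The replicate block called 0 members and left each difference as it was. The 41 members below the filter lay near background, so their differences were not tested, and with 3 arrays a label differences as large as -1.69 (Cyp2d12) were not called.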
